A study of Homo sapiens with 6 samples.

Results

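AP-1 is a dimeric transcription factor built from basic leucine zipper (bZIP) proteins, and the 10 genes described here encode its main human subunits and a few close relatives: the Jun proteins JUN, JUNB and JUND, the Fos proteins FOS, FOSB, FOSL1 and FOSL2, the related factor ATF3, and the small MAF proteins MAFF and MAFK. They were taken by name from a table of 64253 genes, in rows on the primary chromosomes, and every name matched 1 row. All 10 passed the filter on low counts, among 20992 genes that did. RNA sequencing was done on H69, an immortalised human line of cholangiocytes, the epithelium of the bile ducts, at passages 30 to 32. In 3 libraries the cells had received TGF-beta, as recombinant human protein, for 16 h at 10 ng/ml, and in the other 3 they had received vehicle. The study asked which genes TGF-beta changes in this line. A single line was used, and the labels do not say whether the libraries of a condition came from separate cultures, so the spread behind the p-values may be technical.

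Jun proteins pair with each other or with Fos proteins through the leucine zipper, and the basic region of the dimer then contacts the AP-1 site in DNA. Fos proteins do not form stable dimers with each other and need a Jun partner, so the make-up of the mixture depends on both families. Several members are immediate early genes, whose transcription is switched on within minutes of growth factor, cytokine or stress signals by MAP kinases and by serum response factor, and usually fades again within hours. TGF-beta signals through SMAD proteins, which bind DNA weakly and act together with partners that include AP-1. Small MAF proteins have a bZIP domain without a transactivation domain, and pair with NFE2-type factors and BACH proteins.

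Total counts per library ran from 37205862 to 47314515 with TGF-beta and from 39971568 to 54160521 with vehicle. Vehicle replicate 1 stood apart from its group: over the genes tested, log2 CPM differed by a root mean square of 0.384 from vehicle replicate 2 and 0.402 from vehicle replicate 3, while vehicle replicates 2 and 3 differed by 0.248 and the TGF-beta pairs by 0.271 to 0.295. CPM here is the read count scaled to library size, with the trimmed mean of M values (TMM) as correction. Calls of members and counts over gene lists are therefore given with and without it. Of 10 cholangiocyte markers, 8 averaged at least 1 CPM (among them KRT7, KRT19 and EPCAM), and CFTR was at 0 in all 6 libraries; summed, the list measured 6233 to 6773 CPM with TGF-beta and 4172 to 4433 CPM with vehicle. Its members moved both ways: KRT7 (0.95), KRT8 (0.51) and SLC4A2 (0.90) rose on the log2 scale, and SOX9 (-1.76) and EPCAM (-0.48) fell. The 6 hepatocyte markers summed to 5.16 to 6.27 CPM with TGF-beta and 4.82 to 20.5 CPM with vehicle, and the 6 immune and endothelial markers to 12.4 to 14.2 and 17.2 to 17.8 CPM. The fibroblast and stellate list summed to 4862 to 5584 CPM with TGF-beta and 1583 to 1761 CPM with vehicle, nearly all of it COL1A1, with DCN, LUM and DES below 1 CPM in every library. In that list COL1A1 (1.67) and PDGFRB (1.02, to 135 CPM from 66.9 CPM in vehicle) rose on the log2 scale, and PDGFRA (-0.72) fell.

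Of the 10 members, 6 rose with TGF-beta and 0 fell in edgeR's quasi-likelihood test after Benjamini-Hochberg adjustment, where a call needs an adjusted p under 0.05 (0 fell at an unadjusted p under 0.05 too). In that test 40.1% of all genes tested were called, 19.7% higher and 20.4% lower. JUNB rose most, followed by FOSB, JUN, MAFK, ATF3 and FOSL2. The 4 uncalled members were FOS, JUND, MAFF and FOSL1. The median log2 fold change of the 10 was 0.50, against -0.01 over all genes tested. The libraries of the conditions did not overlap for the 6 that rose, which is so for 52.3% of all genes tested, 25.4% with TGF-beta above, and they overlapped for the other 4. With vehicle replicate 1 left out, 6 members were again higher and 2 were lower, FOSL1 and MAFF, where 50.4% of all genes tested were called, 24.9% higher and 25.5% lower. DESeq2 called 1 member lower, FOSL1.

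**Figure D1:**
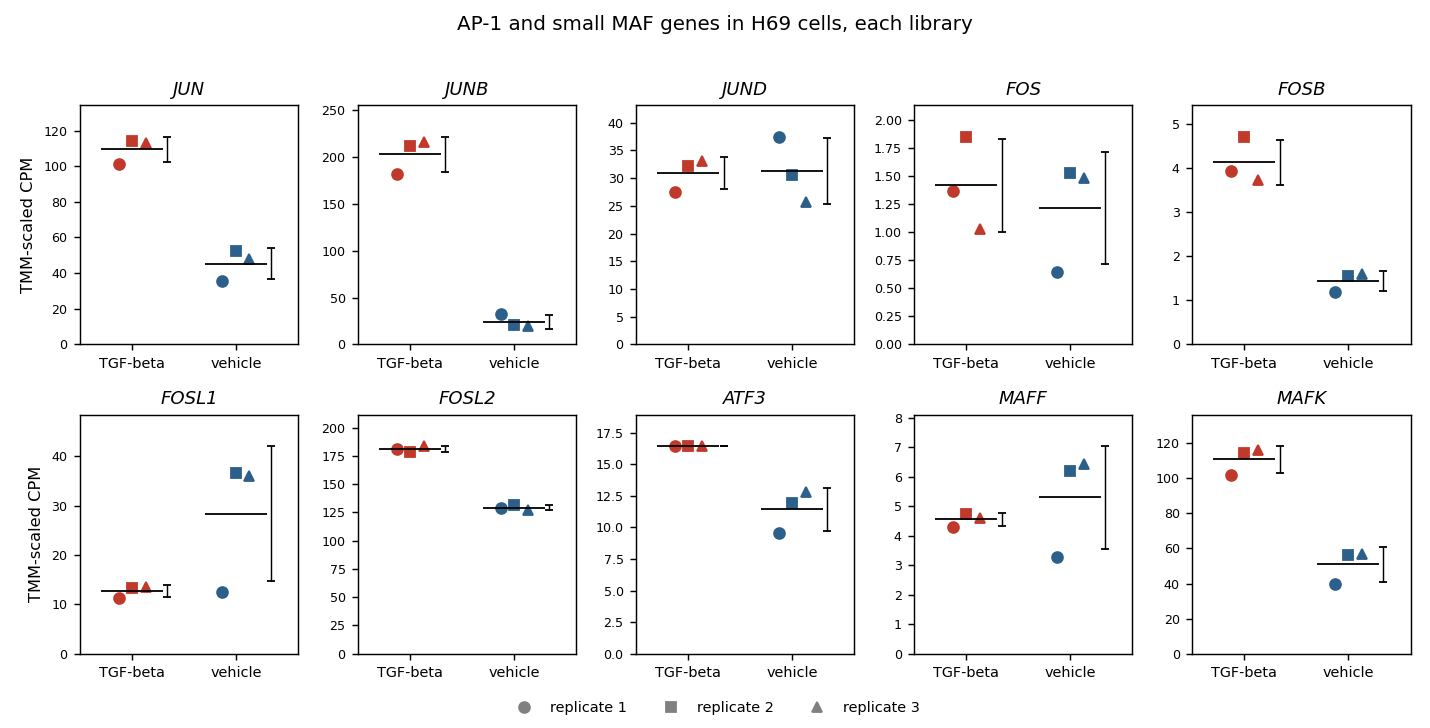
TMM-scaled CPM of each member in every library (y axes start at 0 and differ between panels). TGF-beta libraries are red and on the left, vehicle libraries blue and on the right, symbols mark the replicate number, lines the mean and bars the SD over 3 libraries; JUNB sits at 181 to 216 CPM with TGF-beta and 19.2 to 32.3 CPM with vehicle, and vehicle replicate 1 lies with the TGF-beta libraries for FOSL1.

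The promoters of all 3 Jun genes and of FOSB and FOS are shown because they hold the largest rise (JUNB) beside members that were not called (JUND, FOS). Each is the 250 bases before the transcription start, 5′ to 3′ on the gene's own strand, from RefSeq on GRCh38.p14, and capitals mark the letters found in the search described after them. RefSeq's starts are not those of the deposited table: the JUN window lies inside the table's JUN span, and the end of the FOS window inside its FOS span.
JUNB (chr19:12791236-12791485, plus strand): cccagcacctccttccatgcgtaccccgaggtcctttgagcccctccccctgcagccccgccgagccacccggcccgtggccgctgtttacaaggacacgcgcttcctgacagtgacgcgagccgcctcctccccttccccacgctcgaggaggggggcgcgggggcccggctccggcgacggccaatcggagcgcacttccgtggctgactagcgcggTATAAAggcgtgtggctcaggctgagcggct
JUN (chr1:58784048-58784297, minus strand): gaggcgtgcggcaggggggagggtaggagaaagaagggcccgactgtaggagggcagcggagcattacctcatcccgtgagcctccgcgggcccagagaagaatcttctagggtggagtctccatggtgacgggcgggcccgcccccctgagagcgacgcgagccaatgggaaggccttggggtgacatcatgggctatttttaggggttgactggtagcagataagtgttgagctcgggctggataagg
JUND (chr19:18281623-18281872, minus strand): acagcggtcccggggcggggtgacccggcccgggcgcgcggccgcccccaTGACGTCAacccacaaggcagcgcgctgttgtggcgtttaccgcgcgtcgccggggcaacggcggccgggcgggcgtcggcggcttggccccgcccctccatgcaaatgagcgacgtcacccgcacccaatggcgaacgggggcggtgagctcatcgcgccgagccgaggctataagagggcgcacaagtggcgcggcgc
FOSB (chr19:45467746-45467995, plus strand): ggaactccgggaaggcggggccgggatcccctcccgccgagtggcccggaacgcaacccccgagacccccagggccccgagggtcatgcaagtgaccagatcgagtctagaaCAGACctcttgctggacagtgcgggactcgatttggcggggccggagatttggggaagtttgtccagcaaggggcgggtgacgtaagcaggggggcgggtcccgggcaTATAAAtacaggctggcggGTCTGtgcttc
FOS (chr14:75278578-75278827, plus strand): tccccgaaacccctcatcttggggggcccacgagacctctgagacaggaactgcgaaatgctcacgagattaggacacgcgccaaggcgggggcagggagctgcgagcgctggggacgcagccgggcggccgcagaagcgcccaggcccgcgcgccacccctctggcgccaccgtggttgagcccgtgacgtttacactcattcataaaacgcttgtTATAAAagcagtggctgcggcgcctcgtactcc

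The search covered TGACTCA (the AP-1 site), TGACGTCA (the cyclic AMP response element, which AP-1 dimers with ATF proteins also bind), CAGAC (found in SMAD-binding elements), TATAAA (the TATA box) and the CArG box of serum response factor, on both strands, in the promoters of the 8 members that matched the table by symbol (FOS, FOSB, FOSL2, JUN, JUNB, JUND, ATF3 and MAFF). FOSL1 and MAFK were not matched. TATAAA lay 31 to 26 bases before the start of JUNB, 30 to 25 before that of FOSB and 33 to 28 before that of FOS, so in 3 of 8 members, against 11.1% of 27305 promoters of the same length. TGACGTCA was found in JUND and MAFF (2 of 8, against 1.77% of promoters) and CAGAC or its complement in FOSB and FOSL2 (2 of 8, against 37.8%). TGACTCA and the CArG box were in 0 of 8, against 4.16% and 1.14% of promoters. The search took only these letters within 250 bases, so variant sites and sites further away would be missed. The TATA-bearing members include JUNB and FOSB, which rose, and FOS, which was not called.

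The Jun genes parted from each other. JUNB, an intronless gene (ENSG00000171223, hg38 chromosome 19, 12791496 to 12793315, plus strand), encodes the Jun protein that usually activates transcription more weakly than JUN. It measured 181, 211 and 216 CPM in TGF-beta replicates 1 to 3, against 32.3, 20.6 and 19.2 CPM in vehicle replicates 1 to 3. Every TGF-beta library lay far above every vehicle library, and vehicle replicate 1 was the highest of its group. The log2 fold change was 3.08 (SE 0.24), or 8.47-fold, with an adjusted p of 0.000711 in the edgeR test after Benjamini-Hochberg adjustment. JUNB was called in all 14 alternative settings, with log2 fold changes of 2.82 to 3.35.

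JUN, the cellular counterpart of the viral Jun oncogene and the subunit that JNK kinases phosphorylate, is also intronless (ENSG00000177606, chromosome 1, 58780788 to 58784327, minus strand). Its level was 101, 114 and 113 CPM in TGF-beta replicates 1 to 3, against 35.6, 52.5 and 47.7 CPM in vehicle replicates 1 to 3. The conditions were well separated, with vehicle replicate 1 the lowest library. The rise was 1.27 on the log2 scale (SE 0.15), or 2.41-fold (adjusted p = 0.00148, edgeR with Benjamini-Hochberg adjustment). JUND, the Jun gene that is broadly expressed in resting cells (ENSG00000130522, chromosome 19, 18279760 to 18281622, minus strand), measured 27.6, 32.2 and 33.1 CPM in TGF-beta replicates 1 to 3, against 37.5, 30.5 and 25.6 CPM in vehicle replicates 1 to 3. Its libraries interleaved, and the log2 difference was -0.01 with a 95% interval of -0.37 to 0.35. A rise or fall within that interval remains possible.

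The classical Fos genes were scarce at this time point. FOSB (ENSG00000125740, chromosome 19, 45467995 to 45475179, plus strand), known for its lasting splice form delta-FosB in brain, had 3.95, 4.72 and 3.74 CPM in TGF-beta replicates 1 to 3, against 1.19, 1.55 and 1.601 CPM in vehicle replicates 1 to 3. All TGF-beta libraries lay above all vehicle libraries, from 141 to 214 reads each with TGF-beta and 50 to 87 reads each with vehicle. The log2 fold change was 1.51 (SE 0.15), or 2.84-fold, with an adjusted p of 2.56e-05 in the edgeR test after Benjamini-Hochberg adjustment. FOS, the prototype immediate early gene (ENSG00000170345, chromosome 14, 75278774 to 75282230, plus strand), gave 40 to 84 reads with TGF-beta and 27 to 86 reads with vehicle. That is 1.37, 1.85 and 1.03 CPM in TGF-beta replicates 1 to 3, against 0.644, 1.53 and 1.49 CPM in vehicle replicates 1 to 3, and the ranges overlap in part. Its log2 difference of 0.20 had a 95% interval of -0.58 to 0.98 and changed sign with single libraries left out, so no direction is given.

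The Fos-related antigens, which lack the C-terminal transactivation domain of FOS and FOSB, differed in how steady they were. FOSL2, also called FRA2 (ENSG00000075426, chromosome 2, 28392448 to 28417312, plus strand), measured 181, 178 and 184 CPM in TGF-beta replicates 1 to 3, against 129, 131 and 127 CPM in vehicle replicates 1 to 3. Neither group spread by more than a few CPM, and they did not meet. The rise was small, 0.49 on the log2 scale (SE 0.04) or 1.40-fold, with the lowest adjusted p of the 10 members (5.21e-06, edgeR with Benjamini-Hochberg adjustment).

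FOSL1, also called FRA1 and known as a target of ERK signalling (ENSG00000175592, chromosome 11, 65892049 to 65900573, minus strand), measured 11.4, 13.3 and 13.5 CPM in TGF-beta replicates 1 to 3, against 12.6, 36.7 and 36.0 CPM in vehicle replicates 1 to 3. Vehicle replicate 1 lay inside the TGF-beta range and the other vehicle libraries far above it. With all 6 libraries the log2 fold change was -1.16 (SE 0.47), not called at an adjusted p of 0.129 in the edgeR test after Benjamini-Hochberg adjustment. DESeq2 on the same genes gave an adjusted p of 0.0436, and edgeR without vehicle replicate 1 gave a log2 fold change of -1.51 (SE 0.06) and 3.9e-18. Over 14 alternatives the adjusted p ran from 3.9e-18 to 0.293 and the log2 fold change from -1.51 to -0.90, always negative. Vehicle replicates 2 and 3 lie close together, so a small p without vehicle replicate 1 reflects only the spread among the remaining libraries. DUSP6, an ERK phosphatase that is itself induced by ERK signalling, measured 1.88 to 2.36 CPM with TGF-beta and was also low in vehicle replicate 1, at 3.74 CPM against 10.5 and 10.7 CPM in vehicle replicates 2 and 3. Other immediate early genes outside the bZIP family lay on either side in that library. Over vehicle replicates 1 to 3 in turn, DUSP5 gave 11.2, 21.4 and 23.0 CPM and IER3 18.4, 53.9 and 55.6 CPM. In the same order EGR1 gave 3.03, 1.90 and 1.89 CPM, DUSP1 85.3, 45.6 and 40.1 CPM, and ZFP36 15.0, 9.98 and 9.82 CPM. What sets vehicle replicate 1 apart, ERK signalling included, was not tested.

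**Figure D2:**
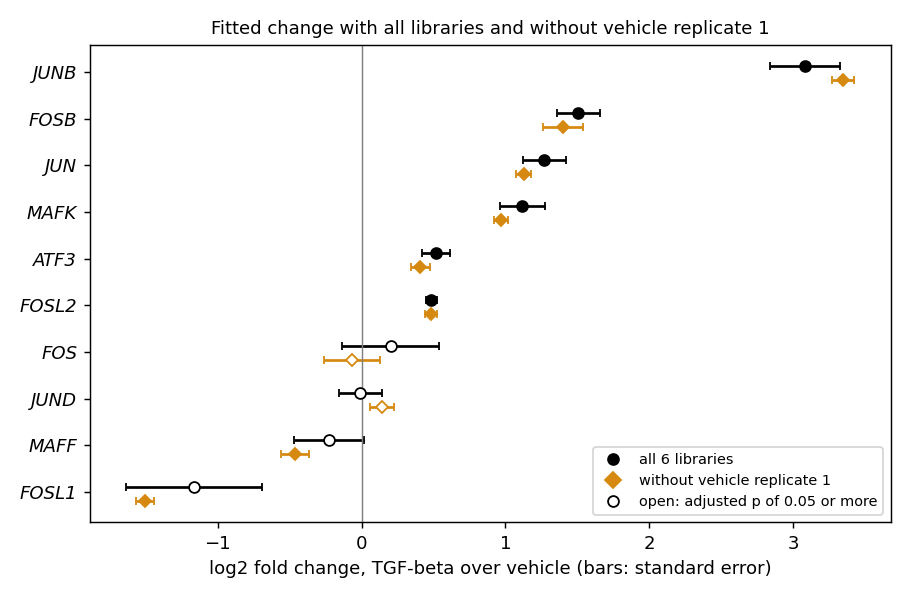
Fitted log2 fold change of each member, TGF-beta over vehicle (x axis, bars are the standard error), from all 6 libraries (black circles) and without vehicle replicate 1 (orange diamonds); open symbols have an adjusted p of 0.05 or more by edgeR's quasi-likelihood test. JUNB leads at 3.08, 6 members are called higher in both fits, and FOSL1 and MAFF are called lower only without vehicle replicate 1.

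Among the other bZIP members, ATF3, a stress-induced factor that can act as a repressor (ENSG00000162772, chromosome 1, 212565334 to 212620777, plus strand), had 16.4, 16.4 and 16.5 CPM in TGF-beta replicates 1 to 3, against 9.56, 11.9 and 12.8 CPM in vehicle replicates 1 to 3. The TGF-beta libraries were nearly identical and lay above all vehicle libraries. The rise was 0.52 on the log2 scale (SE 0.10), or 1.43-fold, at an adjusted p of 0.00185 in the edgeR test after Benjamini-Hochberg adjustment.

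The small MAF genes did not move alike. MAFK (ENSG00000198517, chromosome 7, 1530714 to 1543043, plus strand) measured 102, 114 and 116 CPM in TGF-beta replicates 1 to 3, against 39.5, 56.3 and 57.0 CPM in vehicle replicates 1 to 3. All TGF-beta libraries were higher, and vehicle replicate 1 was again the lowest of all. Its rise was 1.12 on the log2 scale (SE 0.16), or 2.17-fold (adjusted p = 0.00318, edgeR with Benjamini-Hochberg adjustment). MAFF (ENSG00000185022, chromosome 22, 38200767 to 38216511, plus strand) measured 4.31, 4.74 and 4.62 CPM in TGF-beta replicates 1 to 3, against 3.29, 6.19 and 6.42 CPM in vehicle replicates 1 to 3. The TGF-beta libraries lay between vehicle replicate 1 and the other vehicle libraries, and MAFF was not called (log2 difference -0.23, 95% interval -0.81 to 0.36). Without vehicle replicate 1 its log2 fold change of -0.46 was called, at an adjusted p of 0.000183 by the same edgeR test, and over all 12 alternatives its adjusted p ran up to 0.862. The remaining small MAF gene, MAFG, which was not among the 10, was uncalled with a log2 difference of -0.03, and without vehicle replicate 1 was called lower at -0.18 (adjusted p = 0.0024, edgeR).

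Several members share their place with a gene on the other strand, and the sources used here do not give the strand setting of the counting, so reads of such pairs may be split between them or lost. JUNB lies wholly within the span of HOOK2, a linker gene of the microtubule system, and 259 of its 1820 exon bases are also HOOK2 exon in GENCODE release 29, whose spans for all 10 members equal those of the deposited table. HOOK2 rose as well, at 57.2, 66.1 and 62.3 CPM in TGF-beta replicates 1 to 3 against 30.5, 25.6 and 27.4 CPM in vehicle replicates 1 to 3 (log2 1.16, SE 0.07). MAFK shares 809 of its 4458 exon bases with TMEM184A, which rose by 0.65 (SE 0.07). FOSB lies within the span of the DNA repair gene ERCC1, which rose by 0.42 on the log2 scale. MAFF overlaps the phospholipase gene PLA2G6, which fell by 0.48. Neither pair shares exon bases. Whether reads from introns of ERCC1 or PLA2G6 were counted to FOSB or MAFF was not tested. FOSL2 overlaps 2 scarce non-coding genes, FLJ31356 on the other strand and RP11-373D23.2 on the same strand, without shared exon bases.

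Per length, the order of the members differed between the conditions. In RPKM as deposited (reads scaled by gene length and sequencing total), JUNB stood first with TGF-beta at 46.0 ± 4.12, followed by JUN at 12.8 ± 0.816, FOSL2 at 10.4 ± 0.121, MAFK at 10.3 ± 0.690, JUND at 6.85 ± 0.634, FOSL1 at 2.79 ± 0.251, ATF3 at 1.68 ± 0.00615, MAFF at 0.335 ± 0.0162, FOSB at 0.308 ± 0.0395 and FOS at 0.181 ± 0.0533 (mean ± SD, n = 3). FOSL2 and MAFK overlapped across those libraries, as did MAFF and FOSB, and the other neighbours did not. In vehicle the order was FOSL2 at 7.92 ± 0.0875, JUND at 7.35 ± 1.40, FOSL1 at 6.60 ± 3.18, JUNB at 5.80 ± 1.74, JUN at 5.61 ± 1.06, MAFK at 5.01 ± 0.971, ATF3 at 1.24 ± 0.184, MAFF at 0.414 ± 0.136, FOS at 0.165 ± 0.0674 and FOSB at 0.114 ± 0.0175 RPKM (mean ± SD, n = 3). There, each of the first 6 overlapped its neighbours in the order, as did FOS and FOSB. FOSL2 nonetheless lay above JUNB, JUN and MAFK in every vehicle library, and JUND above MAFK.

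Within the Jun family, JUNB made up most of the RNA after TGF-beta. As a share of the summed RPKM of JUN, JUNB and JUND in a library, JUNB held 69.7, 70.1 and 70.5% in TGF-beta replicates 1 to 3, against 37.0, 26.6 and 27.96% in vehicle replicates 1 to 3. JUND held 10.3, 10.4 and 10.6% with TGF-beta and 42.0, 38.5 and 36.4% with vehicle, although its own level was not called different. JUN, whose level rose, held 19.99, 19.5 and 18.96% with TGF-beta and 21.0, 34.8 and 35.7% with vehicle. The shares of the TGF-beta libraries agreed to within about a percentage point, and for none of the 3 genes did the conditions overlap. For each of the 3 shares p was 0.1 in an exact two-sided permutation test, the smallest that 3 against 3 libraries allow (0.117 adjusted over the 7 Jun and Fos shares). The summed Jun RPKM was 59.2, 68.6 and 69.02 with TGF-beta and 21.0, 18.6 and 16.6 with vehicle, a ratio of means of 3.50 (exact p = 0.1).

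The Fos family was mostly FOSL2 and FOSL1 RNA in every library. FOSL2 held 77.9, 74.6 and 75.9% of the summed RPKM of FOS, FOSB, FOSL1 and FOSL2 in TGF-beta replicates 1 to 3, against 71.8, 47.6 and 47.3% in vehicle replicates 1 to 3. FOSL1 held 18.6, 21.2 and 21.2% with TGF-beta, against 26.6, 50.5 and 50.7% with vehicle. Vehicle replicate 1 thus stood near the TGF-beta libraries in its make-up, and the other vehicle libraries had about as much FOSL1 as FOSL2. FOSB held 2.24 ± 0.282% with TGF-beta and 0.782 ± 0.0679% with vehicle, and FOS 1.32 ± 0.387% and 1.08 ± 0.248% (mean ± SD, n = 3 each). The exact two-sided p was 0.1 for FOSL2, FOSL1 and FOSB and 0.4 for FOS (0.117 and 0.4 adjusted over the 7 shares). These shares depend on the division by gene length: from raw counts the TGF-beta share minus the vehicle share was 9.74 points for FOSL2 and -10.9 points for FOSL1, against 20.6 and -22.3 points from RPKM, and for FOS it was -0.03 against 0.24 points.

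The summed Fos RPKM did not separate the conditions, at 13.4, 13.8 and 13.9 with TGF-beta and 11.02, 16.8 and 16.5 with vehicle (exact two-sided p = 0.5). Per length, Jun RNA therefore exceeded Fos RNA by a larger factor after TGF-beta: the ratio of the sums was 4.41, 4.97 and 4.97 with TGF-beta, against 1.91, 1.10 and 1.01 with vehicle (exact two-sided p = 0.1). The vehicle library with the highest ratio was again replicate 1. Its size depends on the division by gene length, 7157 bases for FOSL2 and 1820 for JUNB. In vehicle, FOSL2 had 5401 to 7382 reads a library and each Jun gene 998 to 2948. These are shares of RNA, and the amounts of protein were not measured here.

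**Figure D3:**
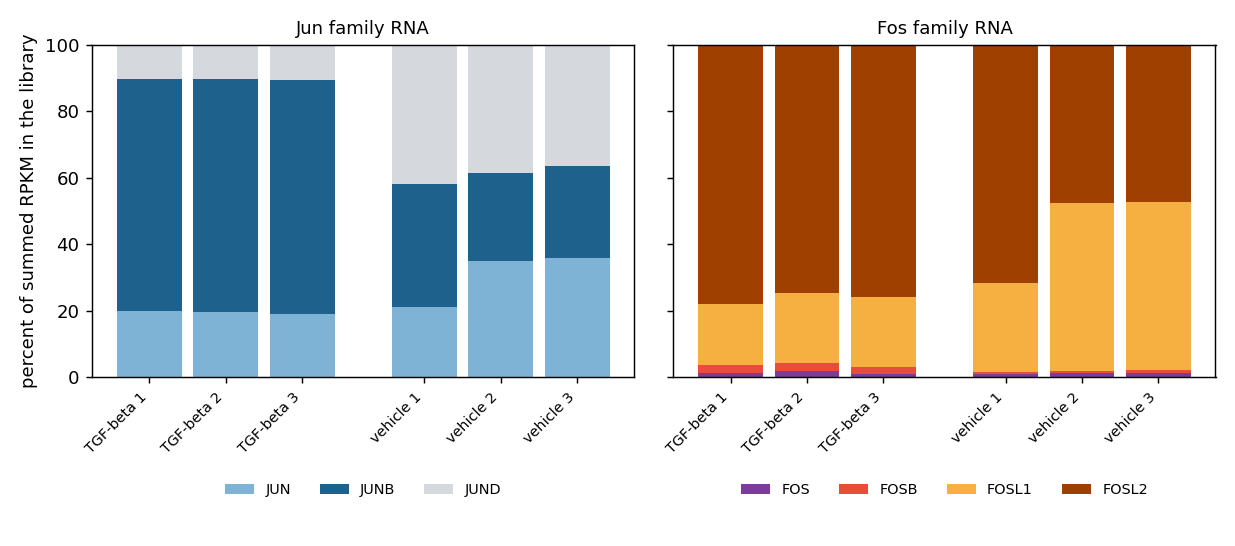
Share of each gene in the summed RPKM of its family (y axis, percent) in each library (x axis, TGF-beta replicates 1 to 3, then vehicle replicates 1 to 3), for the Jun genes (left) and the Fos genes (right). JUNB fills about 70% of every TGF-beta bar, against 26.6 to 37.0% of the vehicle bars, and vehicle replicate 1 has less FOSL1 than the other vehicle libraries.

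The genes whose pattern over the 6 libraries was most like that of JUNB, by the root mean square difference of centred log2 CPM over 11369 candidates (protein-coding, averaging 5 CPM or more), were SLC13A5, a citrate transporter gene (0.180), CSF1R, the receptor of macrophage colony-stimulating factor (0.188), and CUX2, a homeobox gene (0.190). Their log2 fold changes were 2.92 (SE 0.11), 3.51 (SE 0.14) and 2.75 (SE 0.20), and each was highest among the vehicle libraries in replicate 1, as JUNB was. Both traits follow largely from the choice of these genes for likeness to JUNB over the same libraries.

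Of 41 other bZIP genes found in the table, 38 were tested, with 9 higher, 10 lower and 19 uncalled. That is 50% called, against 40.1% of all genes tested, and the median log2 fold change was -0.03. JDP2, a repressor that pairs with JUN proteins, rose to 50.7 ± 1.76 CPM with TGF-beta, against 26.3 ± 5.39 CPM in vehicle (log2 0.95, SE 0.14), and XBP1, of the unfolded protein response, to 185 ± 2.72 against 105 ± 3.24 CPM (0.82, SE 0.04). ATF4, of the integrated stress response, rose by 0.44. NFE2, a partner of small MAF proteins best known from blood platelets, fell to 0.391 ± 0.0904 CPM with TGF-beta, against 2.24 ± 0.541 CPM in vehicle (log2 -2.52, SE 0.25). TEF, a factor of circadian output, fell to 7.02 ± 0.784 against 15.0 ± 2.84 CPM (-1.10, SE 0.15), and its relatives DBP (-0.88) and HLF (-2.09, or -1.49 without vehicle replicate 1) fell too. The other small MAF partners NFE2L2 (-0.26) and NFE2L3 (-0.67) fell, BACH1 rose (0.22), and NFE2L1 (0.04) and BACH2 (-0.18) were not called, although BACH2 was called lower without vehicle replicate 1 (-0.42, adjusted p = 0.0246, edgeR). Without that library the list had 12 higher and 15 lower (71.1% called, against 50.4% of all genes tested, median 0.03). Genes in this list outside the naming rule were picked for their family with their values known.

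The next list holds genes that feed into immediate early transcription (MAP kinases and the kinases above and below them, serum response factor and its cofactors). Of its 29 genes 28 were tested, with 9 higher, 7 lower and 12 uncalled. That is 57.1% called, against 40.1% of all genes tested, and the median log2 fold change was -0.01. ELK3, an ETS cofactor of serum response factor, rose to 171 ± 4.35 CPM with TGF-beta, against 67.8 ± 5.38 CPM in vehicle (log2 1.33, SE 0.06). MRTFA, listed under its older name MKL1 and an actin-sensing cofactor, rose to 178 ± 11.4 against 94.4 ± 6.90 CPM (0.91, SE 0.06), and SRF itself by 0.57. MAP2K6, a kinase upstream of p38, fell to 0.216 ± 0.0185 against 2.004 ± 0.169 CPM (-3.19, SE 0.20), and MAP3K5 to 6.52 ± 0.260 against 15.2 ± 1.58 CPM (-1.21, SE 0.09). MAPK8, the gene of the JNK1 kinase, rose by 0.43. The kinase genes RPS6KA2 (-0.61), MAP3K1 (-0.59) and RPS6KA3 (-0.36) were called lower. MAPK3, the gene of the ERK1 kinase, was not called (-0.12), though leaving out vehicle replicate 1 made it a called fall of -0.18 (adjusted p = 0.00333, edgeR). Without that library the list had 9 higher and 10 lower (67.9% called, against 50.4% of all genes tested, median 0.01).

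Immediate early genes outside the bZIP family moved both ways. Of 26, 23 were tested, with 9 higher and 7 lower (69.6% called, against 40.1% of all genes tested, median log2 fold change 0.25). Without vehicle replicate 1 there were 12 higher and 8 lower (87% called, against 50.4% of all genes tested, median 0.36). The number lower was 2 to 8 with single libraries left out. It was 2 without TGF-beta replicate 1 or 2 or vehicle replicate 2 or 3, and 4 without TGF-beta replicate 3. SGK1, a kinase gene, rose to 33.4 ± 1.77 CPM with TGF-beta, against 5.88 ± 1.54 CPM in vehicle (log2 2.52, SE 0.17), and KLF10, known as a TGF-beta-inducible early gene, to 143 ± 1.57 against 51.8 ± 3.55 CPM (1.46, SE 0.05). EGR1 rose by 0.96 and IER2 by 0.77. The ERK phosphatases DUSP6 (-2.02, SE 0.49) and DUSP5 (-1.41, SE 0.31) fell, at adjusted p = 0.0296 and 0.0193 in the edgeR test after Benjamini-Hochberg adjustment, and ran from 3.1e-17 to 0.0947 and from 6.89e-18 to 0.0679 over their alternatives. Both lost their calls without TGF-beta replicate 1, 2 or 3, without vehicle replicate 2 or 3, and with no filter on low counts. The other falls included IER5 (-0.54, adjusted p = 9.98e-05) and BTG2 (-0.40, adjusted p = 0.00234) by the same edgeR test. The scarcer KLF2 (-0.57), NR4A2 (-1.07) and NR4A3 (-0.69) were also called lower.

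Among 19 genes that textbooks name as AP-1 targets, 15 were tested, with 6 higher, 1 lower and 8 uncalled. That is 46.7% called, against 40.1% of all genes tested, and the median log2 fold change was 0.61. Without vehicle replicate 1 there were 8 higher, 6 lower and 1 uncalled (93.3% called, median 0.39, where 50.4% of all genes were called). IL11, a cytokine gene, rose to 64.0 ± 2.15 CPM with TGF-beta, against 10.01 ± 5.999 CPM in vehicle (log2 2.65, SE 0.55) and was another gene with a low vehicle replicate 1, at 3.12 CPM against 14.1 and 12.8 CPM. Its adjusted p of 0.0216 in the edgeR test after Benjamini-Hochberg adjustment ran from 6.94e-23 to 0.0717, and its call was lost without TGF-beta replicate 1, 2 or 3, without vehicle replicate 2 or 3, and with the replicate block. VEGFA (1.65), MMP9 (1.33) and HMOX1 (1.21) also rose. EZR, the ezrin gene, was the single fall with all 6 libraries (-0.17, SE 0.05). Its adjusted p of 0.0159 by the same edgeR test reached 0.0915 without other libraries: its call was lost without TGF-beta replicate 2 or vehicle replicate 2 or 3. Without vehicle replicate 1, IL6 (-2.21), CCND1 (-0.74), CXCL8 (-0.39), CD44 (-0.20) and PLAU (-0.11) were called lower too, beside the 8 higher. The number lower was 0 without TGF-beta replicate 2 or vehicle replicate 3. The collagenase and stromelysin genes MMP1, MMP3, MMP10 and MMP13, the classical AP-1 targets, were below the filter, at no more than 0.0662 CPM in any library.

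**Figure D4:**
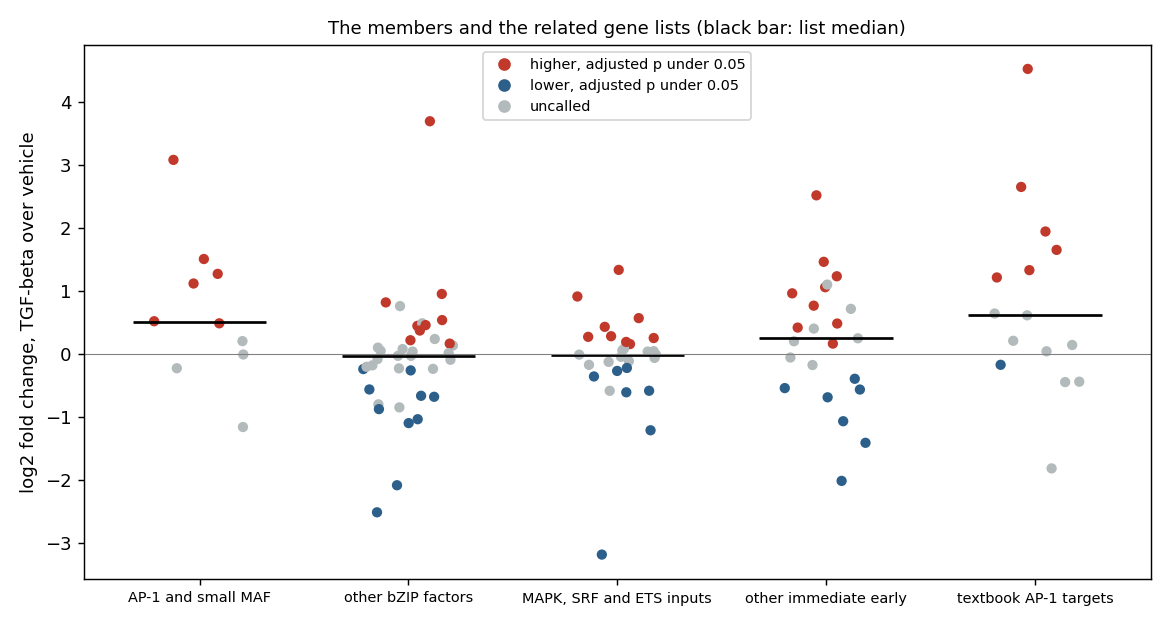
Fitted log2 fold change (y axis, TGF-beta over vehicle) of each tested gene in the AP-1 and small MAF group and in the 4 related lists (x axis); red is called higher, blue called lower, grey uncalled at an adjusted p of 0.05, and the black bar is the list median. The medians are 0.50 for the AP-1 and small MAF group and -0.03, -0.01, 0.25 and 0.61 for the other lists.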

How the data were processed

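RNA sequencing counts of 6 H69 libraries (3 TGF-beta, 3 vehicle, grouped by their labels) were read from 1 deposited table. Per the submitters' processing notes, the tools were bcl2fastq, STAR 2.6.1 and featureCounts of Subread, with hg38. The count columns hold raw reads per gene, per the file headers. The RPKM columns hold reads per gene length and sequencing total, computed by the authors, per the file headers. Strand setting, multi-mapping and annotation release are not given in the sources used here.

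The counts were tested with edgeR 4.0.16 in R 4.3.3: TMM scaling, filterByExpr (minimum count 10), and a robust quasi-likelihood fit comparing TGF-beta with vehicle, adjusted by Benjamini-Hochberg over 20992 genes. Log2 fold changes are fitted; their SE is the size of the fold change over the square root of F. No 2 libraries of a condition agreed within sampling noise (chi-square per degree of freedom 2.47 to 26.1). Scaled this way, 1 CPM is 35.7 to 56.2 reads. Alternatives used DESeq2 1.42.0 and limma 3.58.1 on log2(RPKM + 1) and log2(RPKM + 0.1), a log2 scale computed from the RPKM values the authors deposited. The tests were tried on simulated data. The members and lists were chosen with earlier results of these data known. Beyond the members, the text names the 2 largest called rises and falls of each list with a mean of at least 1 CPM, the 3 genes most like the member with the largest called rise, and genes overlapping a member; no member was called lower, so no gene was matched to a fall. Other list genes were picked after their values were seen. A gene that this rule names is not reported here.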

Additional observations from a re-analysis of the deposited data

How the results depend on the processing

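All 6 called members kept their direction and their call in each alternative that tested them (14 each, 12 for FOSB, which is below the mean RPKM of 0.5 used for limma, as are FOS and MAFF). The number of members called higher was 6 without any 1 library, and the number lower was 0 to 2. DESeq2 gave 1 member lower. FOSL1 was called in 2 of 14 alternatives and MAFF in 1 of 12. The log2 difference of JUND was 0.0022 with the replicate block and -0.13 to 0.14 without single libraries, and that of FOS -0.068 to 0.40; the cause was not tested. Library totals alone moved the median log2 fold change of all genes to -0.137 and gave 2698 genes higher and 7282 lower (27.0% of calls higher, against 49.2%). With that scaling 5 MAPK and SRF input genes were higher and 15 lower, and 2 AP-1 targets were lower, as also without a filter on low counts, by DESeq2 and with the replicate block. Limma on log2(RPKM + 1) gave 2406 genes higher and on log2(RPKM + 0.1) 2402; both gave 5 other bZIP genes and 5 MAPK and SRF input genes higher and 4 other immediate early genes lower. The limma fits tested 15143 genes. Leaving out single libraries gave 2 to 8 other immediate early genes lower and 0 to 6 AP-1 targets lower. On raw counts without length division, the JUND share differed by -21.9 points and the FOSB share by 1.18 points, against -28.5 and 1.46 points from RPKM; the FOSL2 share differed by 9.74, the FOSL1 share by -10.9 and the FOS share by -0.03 points, against 20.6, -22.3 and 0.24 points.

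The replicate block changed no member's call (6 higher and 0 lower). With the block the SE fell for JUN (0.15 to 0.08) and MAFK (0.16 to 0.08), and rose for JUNB (0.24 to 0.29) and JUND (0.15 to 0.19). Deviations of same-numbered libraries from their group means correlated at 0.065, 0.062 and 0.013 across genes. TGF-beta replicate 3 correlated at 0.014 with vehicle replicate 2. Correlations this small cannot decide whether the numbers mark pairs. The numbers are not stated to pair samples, so the main fit used none. For FOS, at 27 to 86 reads a library, a rise or a fall within the interval of -0.58 to 0.98 remains possible.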
